A study of Mus musculus with 16 samples.

Results

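The genes described here encode 4 thrombospondins (Thbs1, Thbs2, Thbs3 and Thbs4), 3 further matricellular proteins (Sparc, Postn and Tnc) and 3 structural proteins of the fibrous matrix (Fn1, Fbn1 and Eln). They were taken by symbol from the table of mouse mammary adipose RNA-Seq profiles, and all 10 were found among its 23179 genes. The genes were selected on their differences between groups in these same libraries (the normalized counts compared below), so the differences between groups given here are descriptions of selected genes and support nothing beyond the values themselves. All 10 members passed the filter on low values and were among 21218 genes tested.

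The study asked whether bariatric surgery and dietary weight loss reverse effects of obesity on mammary tissue in a mouse model of breast cancer. Wild-type female C57BL/6N mice, bought as young adults, were given either the low-fat diet D12450J as control or D12492, in which fat supplies 60% of the calories, to produce diet-induced obesity (DIO). CON-LFD mice stayed on the low-fat diet, DIO-HFD mice stayed obese on the high-fat diet, DIO-LFD mice were changed to the low-fat diet, and DIO-VSG mice had a vertical sleeve gastrectomy, an operation that removes much of the stomach, and were then fed the low-fat diet. All mice without the gastrectomy had a sham operation, and all mice, controls included, carried a tumor grown from E0771 mouse mammary cancer cells injected into the 4th mammary fat pad 22 weeks after randomization. The profiled tissue was the 9th pad, on the opposite side, so no group was free of tumor or of surgery, and DIO-VSG differed from DIO-HFD in both operation and diet. There were 4 libraries per group, each from a mouse with its own number, and 16 in all.

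Matricellular proteins are secreted into the extracellular matrix, where they act mainly as signals between cells and matrix rather than as building material. Thrombospondins bind calcium, integrins and other receptors such as CD36 and CD47. Thbs1 and Thbs2 form trimers, inhibit angiogenesis and regulate matrix turnover, and Thbs1 can also activate latent TGF-beta, whereas Thbs3 and Thbs4 form pentamers and lack the domains for which the trimeric pair is known as angiogenesis inhibitors. In adipose tissue, expansion in obesity is accompanied by remodeling of the matrix that surrounds adipocytes and vessels.

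To place the members in the genome, gene positions were read from GENCODE on GRCm38. Thbs1 lies at chr2:118111876-118127133 on the plus strand, Thbs2 at chr17:14665500-14694235 on the minus strand, Thbs3 at chr3:89215180-89226837 on the plus strand and Thbs4 at chr13:92751590-92794818 on the minus strand. Sparc lies at chr11:55394500-55423183 (minus), Postn at chr3:54361109-54391037 (plus) and Tnc at chr4:63959785-64047015 (minus). Fn1 lies at chr1:71585520-71653200, Fbn1 at chr2:125300594-125507993 and Eln at chr5:134702593-134747323, all on the minus strand. All are protein-coding, and 6 share exon positions with a gene on the opposite strand, namely Thbs1 with Gm29233, Thbs3 with Mtx1, Tnc with 8030451A03Rik, Fn1 with Apol7d, Fbn1 with Gm9913 and Eln with Gm30003. The libraries were stranded, but the sources used here do not say whether strand was used in counting, so reads from such overlaps may be split either way.

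Promoter sequence was available in the RefSeq table (GRCm38.p6) for 7 of the 10 members. The 250 bases before the start are printed for the 3 thrombospondins in that table, which differed in level and in their group pattern, and for Postn, whose level differed little between DIO-HFD and DIO-VSG. They are written 5′ to 3′ on the strand of the gene, from chr17:14694263-14694512 (minus) for Thbs2, chr3:89214930-89215179 (plus) for Thbs3, chr13:92794819-92795068 (minus) for Thbs4 and chr3:54360857-54361106 (plus) for the second of 2 Postn windows. Capitals mark matches, on either strand, to 5 short motifs. The box for the TATA-binding protein was searched as TATAAA and the CCAAT box by the letters of its name. The GC box bound by Sp1 was searched as GGGCGG. The AP-1 motif was searched as TGANTCA, and the motif of the TEAD factors as GGAATG.
Thbs2: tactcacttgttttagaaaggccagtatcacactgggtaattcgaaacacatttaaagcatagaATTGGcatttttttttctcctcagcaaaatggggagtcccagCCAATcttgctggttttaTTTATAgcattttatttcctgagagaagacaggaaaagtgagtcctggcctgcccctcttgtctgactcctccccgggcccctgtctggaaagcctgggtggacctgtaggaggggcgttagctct
Thbs3: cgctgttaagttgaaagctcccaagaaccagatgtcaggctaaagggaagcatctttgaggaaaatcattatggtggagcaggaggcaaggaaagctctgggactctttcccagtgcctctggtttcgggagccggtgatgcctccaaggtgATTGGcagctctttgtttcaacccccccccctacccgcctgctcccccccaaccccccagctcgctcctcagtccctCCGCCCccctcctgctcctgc
Thbs4: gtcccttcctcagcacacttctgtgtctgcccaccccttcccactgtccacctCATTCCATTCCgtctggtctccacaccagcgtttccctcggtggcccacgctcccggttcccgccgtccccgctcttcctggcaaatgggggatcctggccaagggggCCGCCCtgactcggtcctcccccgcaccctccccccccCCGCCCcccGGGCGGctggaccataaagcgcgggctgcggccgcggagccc
Postn: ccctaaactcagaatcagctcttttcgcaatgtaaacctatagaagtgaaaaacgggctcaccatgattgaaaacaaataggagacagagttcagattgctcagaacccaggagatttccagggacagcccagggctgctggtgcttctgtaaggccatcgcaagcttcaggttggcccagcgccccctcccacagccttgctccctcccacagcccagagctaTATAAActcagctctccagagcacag

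The Thbs2 window held 2 CCAAT matches, 186 and 144 bases before the start, and 1 TATA match at 126, with a GC content of 46.8%. The Thbs3 window held a CCAAT match at 98 and a GC box at 21, with a GC content of 58.8%. The Thbs4 window was the richest in GC of the 4 printed, at 70.8%, with 3 GC boxes and 2 overlapping TEAD matches. The Postn window held only a TATA match, 26 bases before the start, at a GC content of 52.0%. Of 32851 mouse promoter windows of the same length, 12.4% held the TATA letters, 33.8% the CCAAT letters, 32.7% the GC box, 6.7% the AP-1 letters and 12.6% the TEAD letters. A match is a description of the letters and not a binding site.

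Reads were counted per gene, and a normalized count here is the number of reads divided by the size factor of its library. Libraries held between 46907377 and 57610899 reads, with size factors from 0.9036 to 1.2204, so that even Thbs4, the lowest member, had at least 60.0 normalized counts in every library. The tissue carried adipocyte transcripts throughout, with Adipoq, which encodes adiponectin, between 30428 and 123530.0 normalized counts. Lymphoid content differed widely between libraries within CON-LFD and within DIO-HFD, and less within DIO-LFD and DIO-VSG. The summed level of 10 B cell markers lay between 403 and 97658 normalized counts in CON-LFD, between 1342 and 127663 in DIO-HFD, between 24192 and 51654 in DIO-LFD and between 90526 and 103680 in DIO-VSG. In 4 libraries the sum was under 10000 (CON-LFD replicates 2 and 4, and DIO-HFD replicates 2 and 3), and the defining markers Ms4a1 and Cd79a were above 0 in all libraries. Lymph node stroma markers moved in the same way, with sums of 2248 to 69156 in DIO-HFD and 42391 to 57937 in DIO-VSG. Markers of skeletal muscle summed to 180883 in DIO-LFD replicate 4, against 1787 to 2658 in the other libraries of that group, and markers of macrophages summed to 108093 in CON-LFD replicate 4, against 17099 to 40431 in the others of that group. In bulk tissue, fewer cells of a type and less RNA per cell cannot be told apart.

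Per kilobase of the longest coding transcript, Sparc was the most abundant member, at 41159 ± 25863 normalized counts per kb (SD, n = 16). Sparc, also called osteonectin, binds collagen and is a standard product of adipose stroma and endothelium. Postn, which encodes periostin, followed at 7209 ± 3342, and Fn1 (fibronectin, the main adhesive glycoprotein of the provisional matrix) at 4289 ± 3557. Thbs1 stood at 3357 ± 3265 and Thbs2 at 2608 ± 2087 on the same scale. Eln (elastin), Fbn1 (fibrillin, the scaffold of microfibrils), Thbs3 and Tnc (tenascin C) stood at 1363 ± 534, 787 ± 573, 349 ± 167 and 284 ± 105 per kb. Thbs4 was the lowest, at 40.9 ± 20.6 normalized counts per kb. The top and bottom of this order held library by library, Sparc being above Postn and Tnc above Thbs4 in 16 of 16 libraries. In the middle, Thbs1 was above Thbs2 in only 9 of 16 libraries, Fn1 above Thbs1 in 10 and Thbs3 above Tnc in 9. These neighbors did not differ beyond the spread between libraries. Postn was above Fn1, Thbs2 above Eln and Eln above Fbn1 in 15 of 16 libraries. Fbn1 was above Thbs3 in 14.

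**Figure D1:**
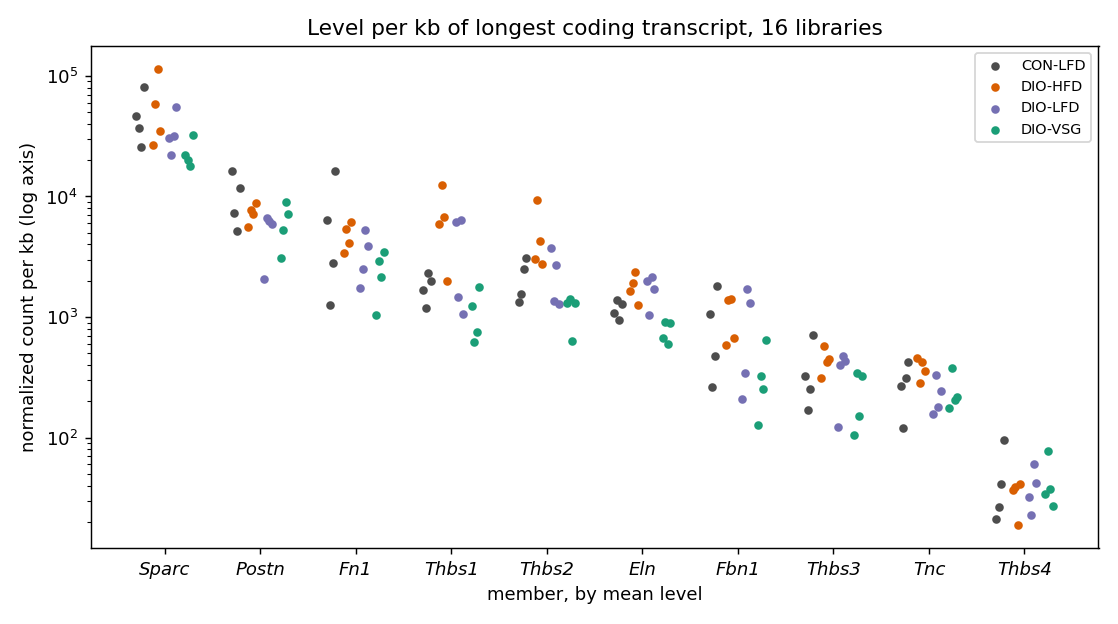
Normalized counts per kb of the longest coding transcript (vertical log axis) of the members, ordered by mean level over 16 libraries, with 1 point per library and colors for the 4 groups. Sparc lies above every other member in each library, and Thbs4 lies at the bottom, between 18.8 and 95.8 per kb.

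The widest range across libraries was that of Thbs1. Its normalized counts were 9756, 6956, 13472 and 11573 in CON-LFD replicates 1 to 4, and 34443, 72586, 39863 and 11589 in DIO-HFD. They were 36040.2, 8613.5, 37419 and 6210.1 in DIO-LFD, and 7225.5, 3653, 4404 and 10412 in DIO-VSG. In DIO-HFD, 3 of 4 libraries were far above every CON-LFD library and the fourth was level with them, while DIO-LFD fell into a high pair (replicates 1 and 3) and a low pair (replicates 2 and 4). All DIO-VSG libraries were below all DIO-HFD libraries, by a narrow margin between 10412 and 11589. The highest library was 19.9 times the lowest.

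Thbs2 resembled Thbs1 in its pattern over the groups. Its normalized counts were 7797, 9190.4, 14857 and 18339 in CON-LFD, and 17711, 55280.2, 25203 and 16347.5 in DIO-HFD. They were 22164, 7936, 16026 and 7536 in DIO-LFD, and 7687, 8335, 3764 and 7645 in DIO-VSG. DIO-HFD overlapped CON-LFD through 1 high CON-LFD library, DIO-LFD again had replicates 1 and 3 above replicates 2 and 4, and DIO-VSG lay wholly below DIO-HFD. The highest library of both genes was DIO-HFD replicate 2, which also had few B cell transcripts.

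The pentameric thrombospondins were lower in level and overlapped between all groups. Thbs3, which is expressed in bone and many connective tissues, had normalized counts of 1044, 543, 815 and 2282 in CON-LFD and 989, 1839, 1347 and 1436 in DIO-HFD. It had 394, 1267, 1518 and 1376 in DIO-LFD and 335, 1092, 481 and 1042 in DIO-VSG. The groups overlapped in every comparison, and DIO-VSG replicates 2 and 4 were above the lowest DIO-HFD library. Thbs4, known from tendon, muscle and nerve, had group means of 148 ± 109 normalized counts in CON-LFD, 109 ± 32.9 in DIO-HFD, 126 ± 50.5 in DIO-LFD and 141 ± 71.0 in DIO-VSG (SD, n = 4 each). The CON-LFD and DIO-VSG means lay above the highest DIO-HFD library, at 131, but the values of all 4 groups overlapped, and the highest single value, 306, was in CON-LFD replicate 4.

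Sparc had its highest mean in DIO-HFD and its lowest in DIO-VSG. Its normalized counts were 107851, 84376, 59483 and 187429.8 in CON-LFD, and 61596, 135288, 263202 and 80868 in DIO-HFD. They were 69941.5, 51196, 72506 and 127887 in DIO-LFD, and 50709, 46526, 41088 and 74691.5 in DIO-VSG. The DIO-VSG libraries were mostly at the low end, but the highest of them overlapped DIO-HFD replicate 1. The 3 highest Sparc levels were in DIO-HFD replicates 3 and 2 and CON-LFD replicate 4, all of which were among the libraries with few B cell transcripts.

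Postn and Tnc, which encode proteins of wound and tumor stroma, had group means closer to each other. Postn averaged 32552 ± 15984 normalized counts in CON-LFD, 23609 ± 4292 in DIO-HFD, 16708.5 ± 6797 in DIO-LFD and 19695 ± 8128 in DIO-VSG. Its highest library was CON-LFD replicate 1, at 52591, and its lowest DIO-LFD replicate 1, at 6616.5. Tnc averaged 1996 ± 884 in CON-LFD, 2709 ± 548 in DIO-HFD, 1621 ± 554 in DIO-LFD and 1747 ± 656 in DIO-VSG (SD, n = 4 each). DIO-HFD had the highest mean of Tnc, and its lowest library, at 2018.5, was below the highest library of each other group.

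Of the structural genes, Eln had the least spread within groups. Its normalized counts were 4168, 5364, 3656 and 4944 in CON-LFD, and 6289.5, 7392, 9028 and 4822 in DIO-HFD. They were 7599, 4013, 8204 and 6587 in DIO-LFD, and 2588, 3519, 2301 and 3467 in DIO-VSG. Every DIO-VSG library was below every library of the other 3 groups, although the gap to CON-LFD, between 3519 and 3656, was small. The coefficient of variation of Eln within groups was between 16.9% and 28%.

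Fbn1 and Fn1 varied more within groups, except Fn1 in DIO-HFD. There its coefficient of variation was 26.4%, close to the 25.8% of Eln. Fbn1 had normalized counts of 12602, 3148, 5730.5 and 21804 in CON-LFD and 6993, 16576, 16800.1 and 8018.5 in DIO-HFD. It had 2496, 4084, 20424 and 15799.6 in DIO-LFD and 1525, 3870.2, 3057.5 and 7717 in DIO-VSG. DIO-VSG was low, but its highest library lay above the lowest DIO-HFD library. Fn1 averaged 55292 ± 55416 in CON-LFD, 39501 ± 10412 in DIO-HFD, 27851 ± 12919 in DIO-LFD and 19917 ± 8737 in DIO-VSG. The CON-LFD mean of Fn1 rested on replicate 4, at 133885, which was 12.8 times the lowest library of that group and was also the library with the highest macrophage and stromal progenitor sums.

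**Figure D2:**
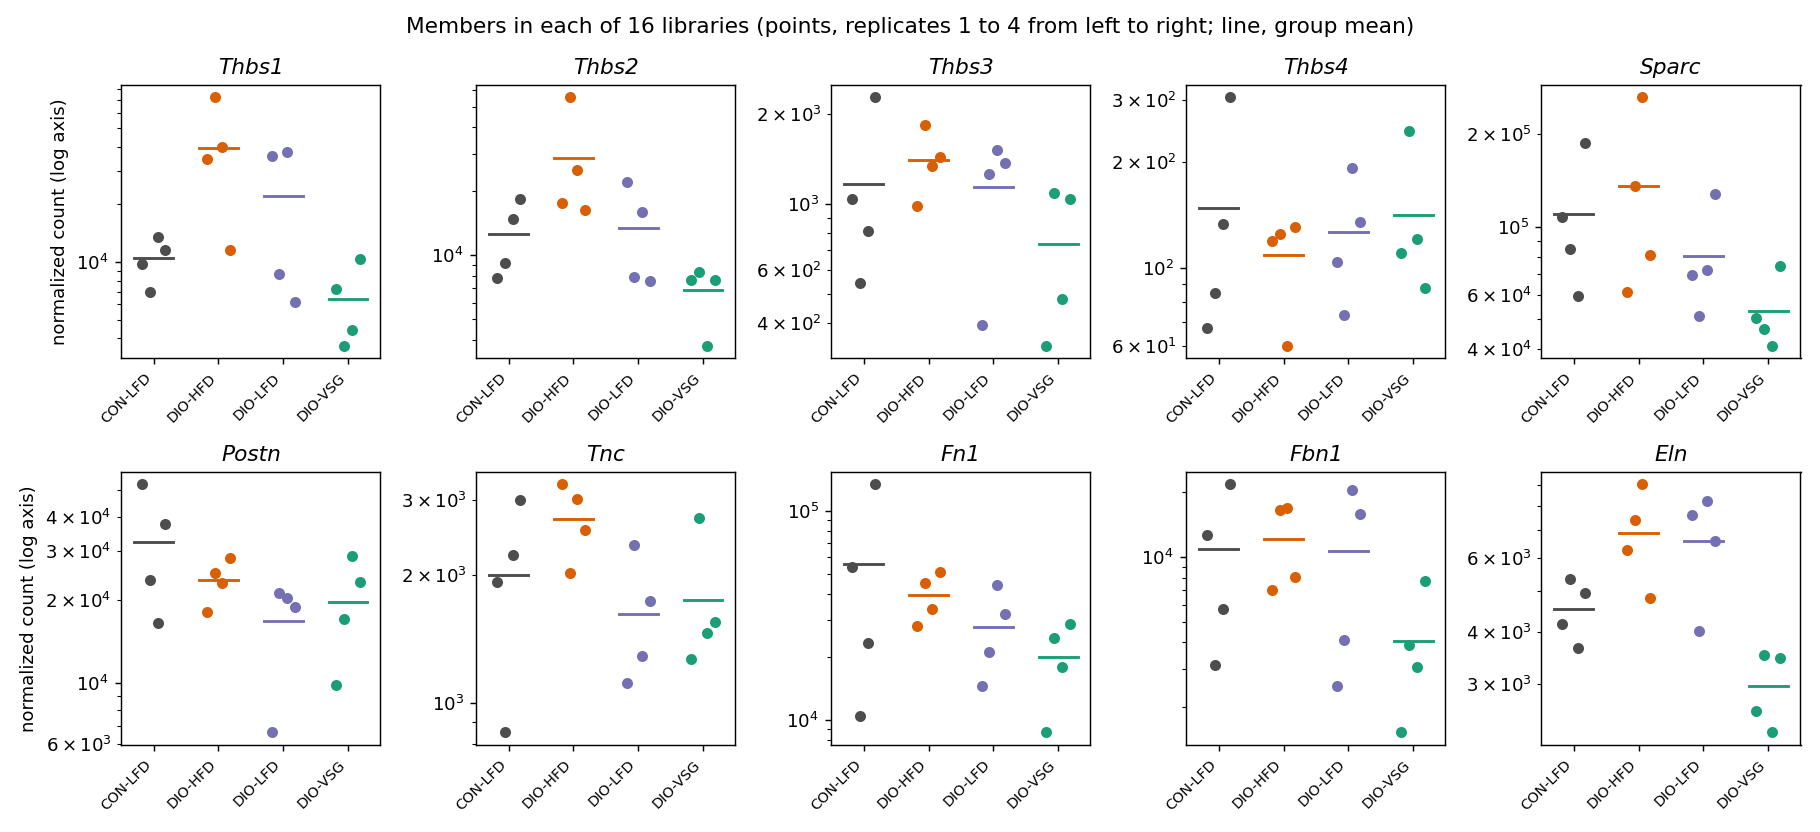
Normalized counts (vertical log axis) of each member in the 4 groups, with 1 point per library in the order of replicates 1 to 4 and a line at the group mean. DIO-VSG lies below DIO-HFD without overlap in the Thbs1, Thbs2 and Eln panels, whereas all 4 groups overlap in the Thbs3, Thbs4 and Tnc panels.

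Obesity was addressed by setting DIO-HFD beside CON-LFD, which also ate different diets, so that obesity and the current diet cannot be told apart here. Thbs1 was 3.23-fold higher in DIO-HFD, at 39620.2 ± 25162 against 10439 ± 2774 normalized counts (SD, n = 4 each), and its fitted log2 fold change was 1.69 ± 0.63 (SE). Folds are those of the fit, which averages on the log scale, so they differ from ratios of the means. Thbs2 was 2.13-fold higher (log2 1.09 ± 0.45) and Eln 1.5-fold higher (0.58 ± 0.24). The other 7 members had log2 values between -0.34 (Postn) and 0.55 (Tnc). The limma fit, on log2 of the normalized count plus 1, gave 3 of 10 members an unadjusted P value below 0.05, all higher in DIO-HFD. Over all genes tested, 5.23% were higher and 7.66% lower at that threshold, and nothing is read from the count because the members were chosen. No member passed an adjusted P value of 0.05, the smallest being 0.283 (limma, Benjamini-Hochberg over all genes tested), and 0.0377% of all genes did. No member was without overlap between the groups, against 1.76% of genes tested that lay wholly higher. The median log2 fold change was 0.42 over the members and 0.021 over all genes tested. With DIO-HFD replicate 2 left out, the 3 members below 0.05 became 0, and without CON-LFD replicate 1 they became 1. With array weights, which down-weight libraries far from their group, 1 was left, Thbs2, and Thbs1 and Eln stood at log2 0.43 and 0.20. When the model also held the B cell score, the count was 3, and Thbs1, Thbs2 and Eln stood at log2 1.77, 1.19 and 0.69. Without the 4 libraries that had few B cell transcripts, an alternative chosen after the data were seen, the count was 0 and Thbs1 stood at 0.80.

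Among the marker lists of other cell types, mammary epithelium was lower in DIO-HFD for 4 of 11 genes tested at an unadjusted 0.05, and all 11 had fitted values below 0 (median log2 -0.80), with sums of 33513 to 70364 against 57123 to 109537. Skeletal muscle markers were below 0 for 10 of 10 (median -2.01, 1 at 0.05), with sums of 1572 to 3220 against 2876 to 39292. Adipocyte markers were below 0 for 9 of 10 (median -0.50, 0 at 0.05), with sums of 442491 to 1295228 against 814259 to 1389640, and nerve markers for 7 of 7 (median -0.32, 0 at 0.05). Stromal progenitor markers were above 0 for 12 of 14 (median 0.16, 2 at 0.05), endothelial markers for 8 of 10 (0.33, 1 at 0.05) and macrophage markers for 10 of 12 (0.39, 1 at 0.05). B cell and T cell markers were above 0 for 10 of 10 each (medians 1.15 and 0.62, 0 at 0.05), and lymph node stroma markers for 6 of 8 (0.50). Keratinocyte markers had a median of 1.43, with a DIO-HFD sum of up to 13572 against at most 2952. Mural, platelet and tendon and cartilage markers had medians of 0.15, 0.10 and 0.21. Beside the B cell and stromal progenitor scores, which left 3 members below 0.05 when each was added to the model, the part of these cell types in the difference was not tested.

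Weight loss by surgery was addressed by setting DIO-VSG beside DIO-HFD. Thbs1 was 5.56-fold lower in DIO-VSG, at 6424 ± 3072 normalized counts, with a log2 fold change of -2.47 ± 0.63 (SE). Thbs2 was 3.85-fold lower (-1.94 ± 0.45) at 6858 ± 2087 against 28635 ± 18185, and Eln was 2.30-fold lower (-1.20 ± 0.24) at 2969 ± 617 against 6883 ± 1776. Fbn1 was 3.25-fold lower (-1.70 ± 0.73) and Sparc 2.22-fold lower (-1.15 ± 0.44). Thbs3, Fn1, Tnc and Postn had log2 values of -1.06 ± 0.51, -1.08 ± 0.63, -0.67 ± 0.35 and -0.35 ± 0.43, and Thbs4 alone had a positive value, 0.32 ± 0.46. In the limma fit, 5 of 10 members had an unadjusted P value below 0.05, all lower, and over all genes tested 8.12% were lower and 5.05% higher. The count was 3 without DIO-HFD replicate 3, without DIO-VSG replicate 3 or with the stromal progenitor score in the model, and 8 in the fit of only these 2 groups or with array weights. Values did not overlap between the groups for 3 members (Thbs1, Thbs2 and Eln), against 4.22% of all genes tested that were wholly lower. No member passed the adjusted threshold, the smallest adjusted P value being 0.243 (limma), and 0.0% of all genes did, while at an unadjusted 0.05 there were 2794 genes, and the voom form of limma called 0 as well. With array weights, 5 members (Thbs2, Thbs3, Tnc, Fn1 and Eln) had limma adjusted P values between 0.00776 and 0.0388, and 3739 genes passed in all, while Thbs1 moved from -2.47 to -1.11 in that fit and did not pass (adjusted P = 0.125, limma). The median log2 fold change was -1.12 over the members and 0.020 over all genes.

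Cell content differed between DIO-HFD and DIO-VSG as well. All 10 B cell markers had higher fitted values in DIO-VSG, with a median log2 fold change of 2.78, but none had an unadjusted P value below 0.05. T cell markers were above 0 for 10 of 10 (median 2.27) and lymph node stroma markers for 6 of 8 (1.81), again with 0 below 0.05. Of the endothelial markers 6 of 10 were lower in DIO-VSG at that threshold, with sums of 50463 to 51850 against 55678 to 93571. Of the mural and smooth muscle markers 6 of 10 were lower and 1 higher, with sums of 37519 to 50210 against 53427 to 81595. Stromal progenitor markers were lower for 4 of 14, with sums of 50800 to 69862 against 67668 to 92602. Adipocyte markers were lower for 1 of 10, with sums of 671084 to 940387 against 442491 to 1295228, and macrophage markers for 1 of 12, although all 12 had fitted values below 0 (median -0.67), with sums of 18959 to 53896 against 45171 to 52060. Skeletal muscle markers were above 0 for 9 of 10 (median 2.27, 1 at 0.05), with sums of 1366 to 30455 against 1572 to 3220. Keratinocyte markers were below 0 for 6 of 8 (median -1.52, 1 at 0.05), with sums of 1238 to 2106 against 1374 to 13572. Tendon and cartilage and nerve markers had medians of -0.14 and 0.0, with 0 below 0.05. Mammary epithelium markers were higher for 2 of 11 tested, with sums of 60430 to 84718 against 33513 to 70364. Platelets store Thbs1 protein, and 1 of 5 platelet markers tested was lower, with sums of 843 to 1465 against 1414 to 2007. The summed levels of the endothelial and of the mural markers did not overlap between these groups, and their part in the differences of the members was not tested.

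The DIO-HFD libraries with B cell sums near those of DIO-VSG were replicates 1 and 4, at 127663 and 82215. In these, Thbs1 stood at 34443 and 11589, Thbs2 at 17711 and 16347.5 and Eln at 6289.5 and 4822. Sparc stood at 61596 and 80868 in them, against 41088 to 74691.5 in DIO-VSG, and so overlapped. When the model also held the B cell score, the log2 fold changes of DIO-VSG against DIO-HFD were -2.31 for Thbs1, -1.72 for Thbs2, -0.96 for Eln and -0.69 for Sparc, and 4 members were below an unadjusted 0.05. Without the 4 libraries with few B cell transcripts they were -1.76 for Thbs1, -1.38 for Thbs2 and -0.92 for Eln. Sparc stood at -0.44 in that fit, against -1.15 with all libraries. When the mean score of the stromal progenitor markers was added to the fit, Fn1 stood at -0.25, Thbs3 at -0.40 and Fbn1 at -0.81. Thbs1 and Thbs2 stood at -2.51 and -1.86 in that fit, against -2.47 and -1.94 without the score.

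**Figure D3:**
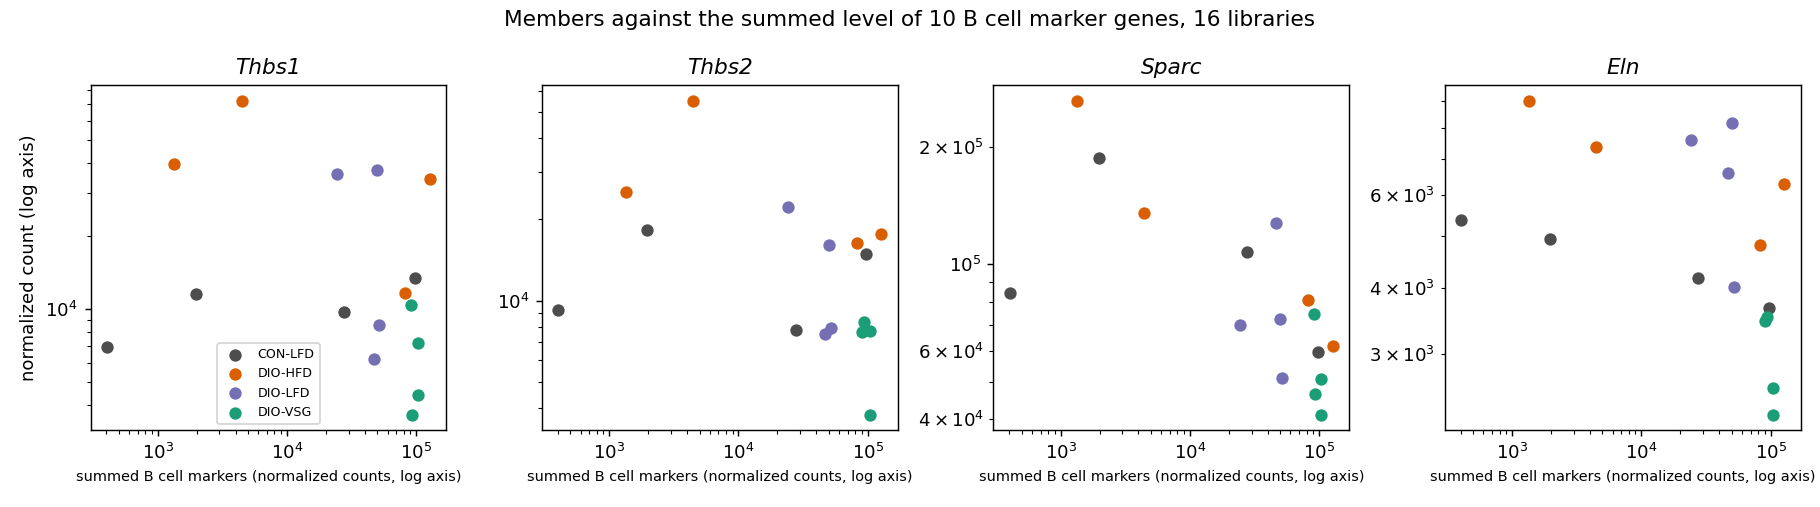
Normalized counts of Thbs1, Thbs2, Sparc and Eln (vertical log axis) against the summed normalized counts of 10 B cell marker genes (horizontal log axis), with 1 point per library colored by group. The DIO-VSG libraries sit together between 90526 and 103680 on the horizontal axis, and the DIO-HFD libraries split between 1342 and 127663.

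Weight loss by diet was addressed by setting DIO-LFD beside DIO-HFD. Thbs2 was 2.09-fold lower in DIO-LFD (log2 -1.06 ± 0.45 SE), at 13415.5 ± 7022 normalized counts, and Tnc was 1.71-fold lower (-0.78 ± 0.35). Thbs1 stood at -1.0 ± 0.63, and its high pair of DIO-LFD libraries, at 36040.2 and 37419, lay within the range of DIO-HFD. With array weights its value turned to 0.26 and that of Eln to 0.39. Eln was nearly level, at -0.07 ± 0.24, with means of 6601 ± 1849.6 in DIO-LFD and 6883 ± 1776 in DIO-HFD. The limma fit put 2 of 10 members below an unadjusted P value of 0.05, both lower, while 3.16% of all genes tested were lower and 5.37% higher. None of the members was without overlap, against 1.5% of genes wholly lower. The smallest adjusted P value of a member was 0.539 (limma) and 0.0% of genes passed 0.05, with 1809 below an unadjusted 0.05 and 0 called by voom. The median log2 fold change was -0.60 over the members and 0.009 over all genes. Leaving out DIO-HFD replicate 3 or DIO-LFD replicate 4 took the count of members from 2 to 0, and 7 other libraries left out in turn took it to 1. The count was also 0 with the replicate number added to the model as a block. It was 1 with array weights or in the fit of only these 2 groups.

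Mammary epithelium markers were higher in DIO-LFD for 6 of 11 tested (median log2 0.68), with sums of 59888 to 153209 against 33513 to 70364. Adipocyte markers were higher for 2 of 10, with sums of 911732 to 1720121 against 442491 to 1295228, and mural and smooth muscle markers were lower for 3 of 10 and higher for 1, with sums of 35640 to 68776 against 53427 to 81595. Skeletal muscle markers had fitted values above 0 for 10 of 10 (median 2.25, 1 at an unadjusted 0.05), with sums of 1787 to 180883 against 1572 to 3220, and B cell markers also for 10 of 10 (median 1.54, 0 at 0.05). T cell markers were above 0 for 9 of 10 (median 0.87) and lymph node stroma markers for 7 of 8 (1.17), with 0 below 0.05. Macrophage markers were below 0 for 11 of 12 (median -0.26, 1 at 0.05), with sums of 29735 to 56892 against 45171 to 52060. Stromal progenitor markers were below 0 for 12 of 14 (median -0.27, 1 at 0.05). Keratinocyte, endothelial, tendon and cartilage, platelet and nerve markers had medians of -0.60, -0.07, -0.08, 0.08 and 0.17. The part of these cell types in the differences of the members was not tested, except that adding the B cell or the stromal progenitor score to the model left 1 member below 0.05.

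The comparison of DIO-VSG with DIO-LFD set the 2 routes of weight loss side by side on the same diet. Eln was 2.18-fold lower in DIO-VSG (log2 -1.13 ± 0.24 SE), and its 4 DIO-VSG libraries all lay below the 4 DIO-LFD libraries. Thbs1 was 2.78-fold lower (-1.47 ± 0.63), and Fbn1 and Thbs2 had values of -1.14 ± 0.73 and -0.88 ± 0.45. Thbs4, Postn and Tnc had values of 0.13 ± 0.46, 0.27 ± 0.43 and 0.10 ± 0.35. In the limma fit 2 of 10 members had an unadjusted P value below 0.05, both lower, beside 5.41% of all genes lower and 4.3% higher. Eln was the single member without overlap, beside 5.83% of all genes tested. The smallest adjusted P value of a member was 0.427 (limma), and 0.0% of genes passed, with 2061 below an unadjusted 0.05 and 0 called by voom. With array weights 184 genes passed and in the fit of only these 2 groups 1533 did, Eln among them in both (limma adjusted P = 0.0336 and 0.0316). The median was -0.59 over the members and -0.022 over all genes. The count of 2 members became 1 without DIO-LFD replicate 3, DIO-VSG replicate 2 or DIO-VSG replicate 3 and in the fit of only these 2 groups, and 5 with array weights.

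The sums of 4 marker lists did not overlap between DIO-VSG and DIO-LFD. B cell sums were 90526 to 103680 in DIO-VSG and 24192 to 51654 in DIO-LFD, T cell sums 27150 to 42259 and 8673 to 18139, and lymph node stroma sums 42391 to 57937 and 23037 to 27613. Endothelial sums were lower in DIO-VSG, at 50463 to 51850 against 53969 to 119364, with 10 of 10 markers below 0 (median -0.54, 2 at an unadjusted 0.05). Adipocyte markers were below 0 for 10 of 10 (median -0.42, 0 at 0.05), mural markers for 10 of 10 (-0.30, 1 at 0.05), macrophage markers for 11 of 12 (-0.55, 0 at 0.05) and mammary epithelium markers for 10 of 11 (-0.42, 0 at 0.05). Stromal progenitor markers had a median of -0.24, with 2 of 14 lower at 0.05, and keratinocyte markers -0.67, with 2 of 8 lower. Nerve, platelet, tendon and cartilage and skeletal muscle markers had medians of -0.52, -0.45, -0.08 and -0.08. Adding the B cell or the stromal progenitor score to the model left 2 members below 0.05, and without the 4 libraries with few B cell transcripts there were 3, while the part of the other cell types was not tested.

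DIO-LFD and DIO-VSG were also set beside CON-LFD, whose libraries are shared with the first comparison. Postn was 1.95-fold lower in DIO-LFD than in CON-LFD (log2 -0.96 ± 0.43 SE), and Thbs2 stood at 0.03 ± 0.45. In DIO-VSG, Eln was 1.54-fold lower (-0.62 ± 0.24) and Sparc 1.93-fold lower (-0.95 ± 0.44) than in CON-LFD. Thbs1 and Thbs2 had values of -0.78 ± 0.63 and -0.85 ± 0.45 there. No member passed the adjusted threshold in these comparisons, the smallest limma adjusted P values being 0.780 and 0.268.

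**Figure D4:**
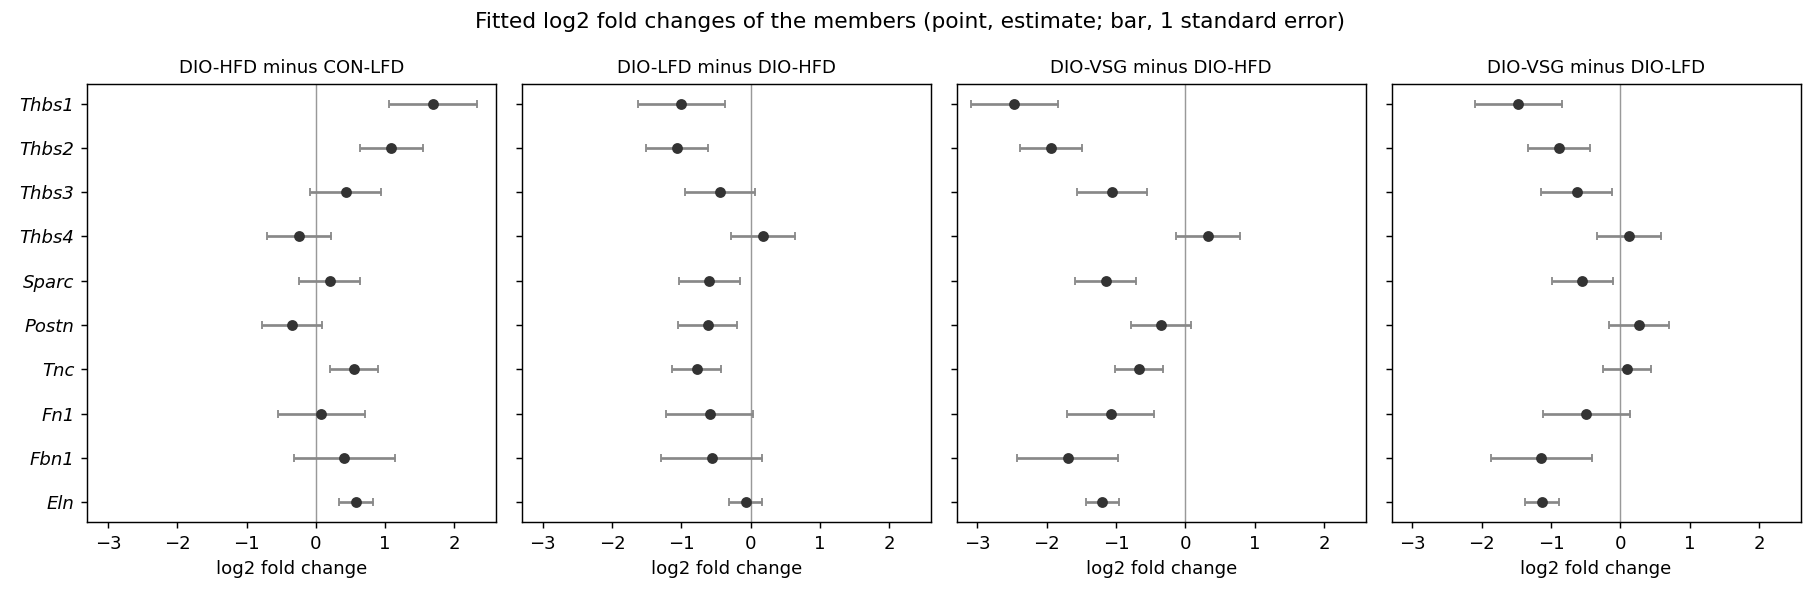
Fitted log2 fold changes (horizontal axis) of the members in 4 comparisons, with bars of 1 standard error from a limma fit of all 16 libraries. Thbs1 moves from 1.69 in DIO-HFD against CON-LFD to -2.47 in DIO-VSG against DIO-HFD, while Thbs4 stays within 1 standard error of 0 in all 4 panels.

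To see which members varied together irrespective of group, each log2 value was taken relative to its group mean and correlated over the 16 libraries, with permutation P values from shuffling within groups, adjusted over 65 relations. Values of r are also given without the 2 libraries farthest from the median relative value of the first-named gene. In correlations with a marker score, the median was that of the score. Thbs3, Fn1 and Fbn1 rose and fell together from library to library. Pearson's r was 0.87 between Thbs3 and Fn1 (Spearman's rho 0.87, permutation P = 6e-05 and 5e-05, adjusted 0.00227 and 0.00325), and 0.85 without the 2 libraries farthest from the median. It was 0.84 between Thbs3 and Fbn1 (rho 0.80, permutation P = 7e-05 and 0.00041, adjusted 0.00227 and 0.00533), and 0.77 without the 2 farthest. Between Fn1 and Fbn1 it was 0.85 (rho 0.88, permutation P = 0.00031 and 0.00035, adjusted 0.00403 and 0.00533), and 0.84 without the 2 farthest.

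The same 3 genes followed the mean score of the stromal progenitor markers, a list led by Pdgfra and Pdgfrb that holds none of the members. For Fn1 the correlation with that score was 0.89 (rho 0.86, permutation P = 0.00014 and 0.00037, adjusted 0.00303 and 0.00533), and 0.85 without the 2 farthest libraries. For Thbs3 it was 0.88 (rho 0.87, permutation P = 0.00021 and 0.00015, adjusted 0.00341 and 0.00487), and 0.81 without the 2 farthest. For Fbn1 it was 0.82 (rho 0.79, permutation P = 0.00365 and 0.00876, adjusted 0.0395 and 0.0712), so that the rank form missed the threshold, and 0.71 without the 2 farthest. Thbs4 gave 0.70 with the score (rho 0.70, permutation P = 0.0153 and 0.00817, adjusted 0.0994 and 0.0712) and missed the threshold.

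For Thbs1 and Thbs2 the correlation with this score was -0.04 (rho -0.03, permutation P = 0.885 and 0.922) and 0.13 (rho 0.14, permutation P = 0.653 and 0.631), and for Eln it was 0.05 (rho 0.09, permutation P = 0.88 and 0.776). The trimeric pair correlated with each other at 0.77 (rho 0.76, permutation P = 0.0109 and 0.0132), but with adjusted values of 0.0787 and 0.0858 this missed the threshold over the family. Without the 2 farthest libraries r was 0.72. Whether the correlations of Thbs1 or Thbs2 with the score differ from those of Thbs3 and Fn1 was not tested. Thbs2 and the macrophage marker score gave 0.58 (rho 0.69, permutation P = 0.00638 and 0.00408, adjusted 0.0567 and 0.0442), on either side of the threshold. The libraries fell into separate clusters by their B cell sums, 4 between 403 and 4452 and the others between 24192 and 127663, so no correlation with these sums was computed. The libraries share a tissue and a common scaling, and correlations of this kind also carry shared differences in cell content.

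**Figure D5:**
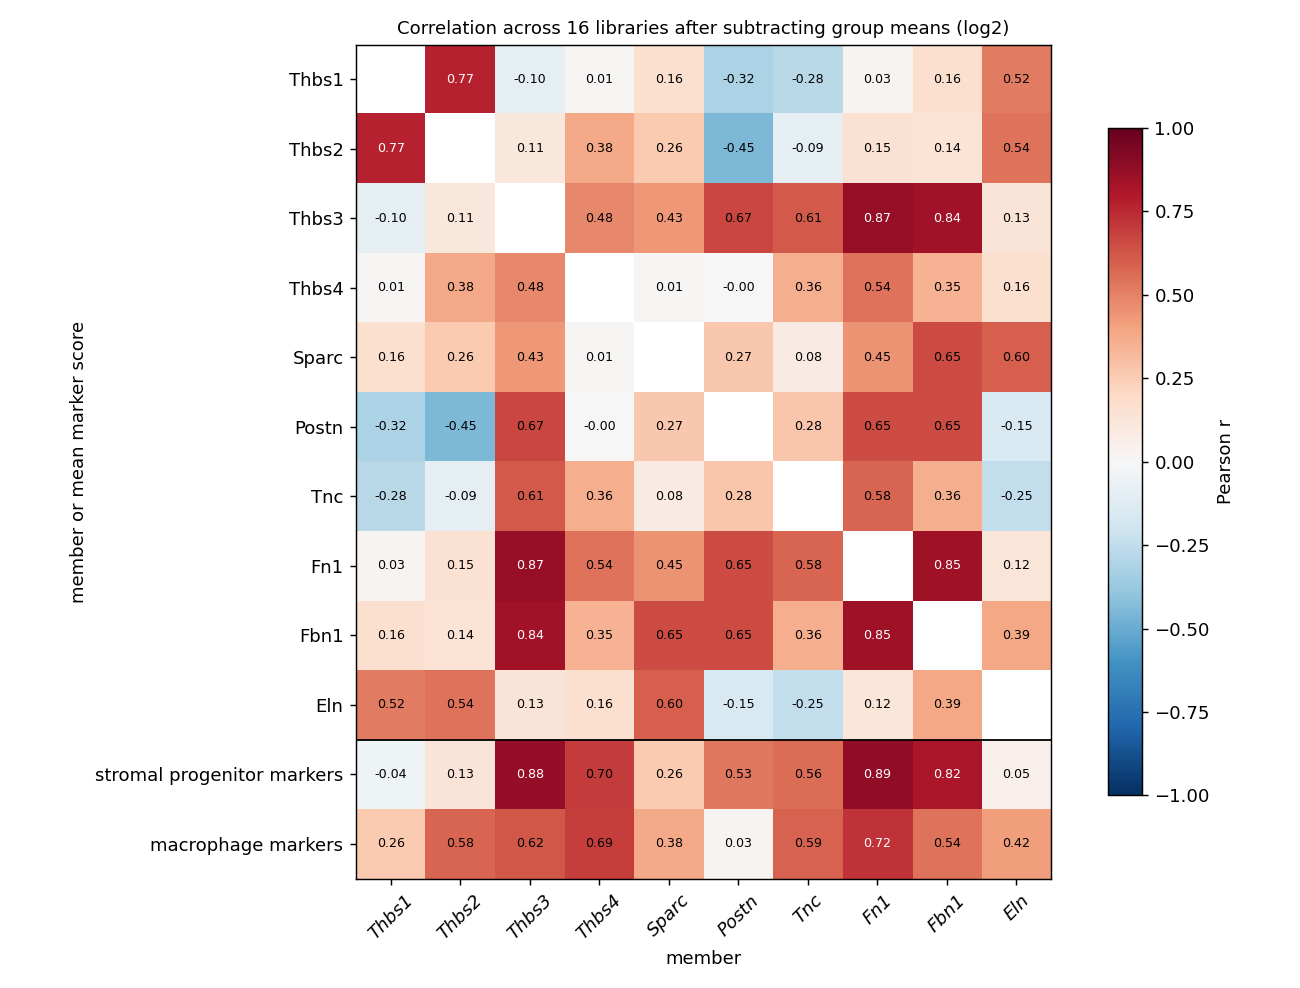
Pearson's r, by color and number, between members and between each member and the mean log2 score of stromal progenitor and macrophage markers, over 16 libraries after the group means were subtracted. Thbs3, Fn1 and Fbn1 form a block with r between 0.84 and 0.87 and values of 0.82 to 0.89 with the stromal progenitor score. Thbs4 with that score (0.70) and Thbs1 with Thbs2 (0.77) missed the adjusted threshold.

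The genes with the most similar profile over the 16 libraries, among 14798 non-member genes with a mean of at least 100 normalized counts, differed between members. For Thbs1 they were Gm29233 (r = 0.970), which shares exon positions with it on the opposite strand, Mfge8 (0.913) and Slfn5 (0.862). For Thbs2 they were C4b (0.960), Anapc5 (0.912) and Pnp2 (0.905), and for Thbs3 they were Itga11 (0.964), Fndc1 (0.961) and Islr (0.950). Thbs4 was closest to Mbp (0.874), which encodes myelin basic protein, Bcas1 (0.831) and Cnpy3 (0.828). Sparc was closest to Gstm2 (0.956), Postn to Frem1 (0.940) and Tnc to Lrrc75a (0.847). Fn1 was closest to Qpct (0.956), Fbn1 to Mrgprf (0.973) and Col5a1 (0.969), a fibrillar collagen chain, and Eln to Sox18 (0.929) and Rhoj (0.928), both known from endothelium. These correlations include differences between groups and are given as a description, with no test.

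Other genes of the same pathways were read from lists of receptors, elastic fiber assembly genes, further matricellular genes and the TGF-beta axis, none of which holds a member. Of the elastic fiber assembly genes, 11 of 21 had an unadjusted P value below 0.05 in DIO-VSG against DIO-HFD, all lower, beside 8.12% of all genes tested, with a median log2 fold change of -1.15. Ltbp4, a latent TGF-beta binding protein needed for elastic fibers, was at 8413 ± 638 against 17605 ± 4978 normalized counts (log2 -1.02 ± 0.23 SE, adjusted P = 0.243, limma). Fbln2 and Fbln5, fibulins that link elastin to microfibrils and to cells, had log2 values of -1.53 ± 0.36 (adjusted P = 0.243, limma) and -1.59 ± 0.40 (adjusted P = 0.243, limma). None of the 21 passed the adjusted threshold. In DIO-HFD against CON-LFD 2 of the 21 were higher at an unadjusted 0.05, Fbln5 (log2 0.94 ± 0.40) and Fbln2 (0.79 ± 0.36), beside 5.23% of all genes, with a median of 0.23. In DIO-LFD against DIO-HFD 4 of 21 were lower, among them Mfap4, Ltbp4 and Fbln5, beside 3.16% of all genes. In DIO-VSG against DIO-LFD 3 of 21 were lower, namely Ltbp1, Fbln2 and Emilin2, beside 5.41% of all genes.

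Of the receptors for these proteins, 5 of 21 were lower in DIO-VSG than in DIO-HFD at an unadjusted 0.05 and none higher, beside 8.12% and 5.05% of all genes tested, with a median log2 fold change of -0.39. They included Lrp1, the endocytic receptor that clears thrombospondins, at 30371 ± 6735 against 56529.9 ± 17024 normalized counts (log2 -0.87 ± 0.27 SE, adjusted P = 0.274, limma). Itgb1, the common beta chain of matrix integrins, stood at -0.64 ± 0.20, and Itga5, the alpha chain of the fibronectin receptor, at -0.75 ± 0.28. In DIO-HFD against CON-LFD 2 of 21 were higher (Itgb3 and Itga5, log2 0.69 ± 0.22 and 0.61 ± 0.28) and 1 lower (Itgav, -0.33 ± 0.15), beside 5.23% and 7.66% of all genes. In DIO-VSG against DIO-LFD 4 of 21 were lower, among them Lrp1, Itgb5 and Itga3, beside 5.41% of all genes, and in DIO-LFD against DIO-HFD 1 of 21, Sdc4, was higher, beside 5.37%. Counts of 1 or 2 among 21 are near those shares and are not read as results about the receptors.

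Of 19 further matricellular genes, 5 were lower in DIO-VSG than in DIO-HFD at an unadjusted 0.05 and none higher, beside 8.12% and 5.05% of all genes tested. Smoc2, a relative of Sparc, averaged 651 ± 273 normalized counts in DIO-VSG against 2458 ± 1010 in DIO-HFD (log2 -1.89 ± 0.49 SE, adjusted P = 0.246, limma). Wisp2, a secreted CCN protein of adipose precursors, stood at -1.96 ± 0.54, and Sparcl1 at -0.92 ± 0.31. In DIO-LFD against DIO-HFD Wisp2 was the single one lower, at -1.37 ± 0.54, and in DIO-HFD against CON-LFD Vtn (vitronectin) was the single one higher, at 0.67 ± 0.26. These single genes stand beside 3.16% of all genes lower and 5.23% higher, and nothing is read from them about the list. In DIO-VSG against DIO-LFD, 0 of 19 were below 0.05.

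Of 19 genes of the TGF-beta axis, 8 were lower in DIO-VSG than in DIO-HFD at an unadjusted 0.05, beside 8.12% of all genes tested, with a median log2 fold change of -0.15 over the list. Acvrl1, an endothelial receptor of the TGF-beta family, averaged 1914 ± 185 against 2797 ± 315 normalized counts (log2 -0.55 ± 0.15 SE, adjusted P = 0.246, limma), and Tgfb1i1 and Tgfbr3 stood at -0.66 ± 0.18 and -0.47 ± 0.15. In DIO-HFD against CON-LFD 3 were higher, Smad7 (an inhibitor induced by TGF-beta signaling, log2 0.72 ± 0.22), Acvrl1 (0.33 ± 0.15) and Smad4 (0.16 ± 0.07), beside 5.23% of all genes. In DIO-LFD against DIO-HFD 0 of 19 were below 0.05, and in DIO-VSG against DIO-LFD 4 were lower, including Tgfbr3, Tgfb1i1 and Tgfb3, beside 5.41% of all genes. No gene of the 4 lists passed an adjusted P value of 0.05 in any of the 4 comparisons (limma).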

How the data were processed

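Total RNA of the mammary fat pad opposite the tumor was sequenced in 16 libraries, and groups and replicate numbers were read from the sample titles. The labels also name a cancer cell line for these samples, whereas the tissue entry names normal mammary tissue. The file is called a table of normalized counts, but the authors deposited log2 values from their variance-stabilizing step, from 5.36 to 21.85. The transformation was inverted, which gave whole reads (within 0.01) for 100.0% of values. The submitters' processing notes name TopHat2 2.0.7, HTSeq 0.5.3p9 and DESeq2 on mm10, whereas the published methods name STAR and salmon, so the counter is uncertain. Genes under 10 reads in total are not listed.

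One model with a mean per group was fitted by limma-trend (limma 3.58.1 in R 4.3.3) to the 16 libraries together, after adding 1 to each normalized count and taking log2. It covered 21218 genes that reached 10 normalized counts in 4 or more libraries. Tests were two-sided, with Benjamini-Hochberg adjustment within each comparison. The code was tested on simulated data. Fold changes on this scale understate the change of low genes. Correlations used 100000 permutations within groups (Python 3.11.15, scipy 1.17.1). Replicates differed by more than sampling noise (chi-square per gene of at least 67.5). Counting error at this depth is small, and P values measure the spread between these mice. Gene positions and lengths were from GENCODE M21, promoters from RefSeq (GRCm38.p6). The members and gene lists were chosen with earlier results of these data known. All members are named, from each pathway list up to 3 genes with the smallest unadjusted P values per comparison, and for likeness up to 3 genes. Alternatives covered scaling, filter, pseudocount, weights, covariates, a replicate block and leaving out each library. One, without the libraries low in B cell markers, was chosen after seeing the data.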

Additional observations from a re-analysis of the deposited data

Results flagged for a closer look

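In 3 of 40 sets of 4 replicates (10 members in 4 groups) the highest or lowest library stood far from the rest, where chance gives about 1 in 20. Thbs2 in DIO-VSG replicate 3 stood at 3764 normalized counts, below 7645 to 8335 in the others, with a gap of 0.849 of the range. Thbs4 in DIO-HFD replicate 3 stood at 60.0, below 119 to 131, with a gap of 0.835. Postn in DIO-LFD replicate 1 stood at 6616.5, below 18814 to 21161, with a gap of 0.839. That last library had the lowest stromal progenitor sum of all 16, at 49057, and the highest adipocyte sum, at 1720121.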

How the results depend on the processing

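In 28 alternative fits of 40 member values (10 members in 4 comparisons), 26 kept their sign throughout and 14 changed it in at least 1 fit, the latter all at sizes of at most 1.0 on the log2 scale. Fits that left out a library of a group outside the comparison could not move its value. The same holds for the fit of only the 2 groups compared and for the replicate block. Members at an unadjusted P value below 0.05 numbered 3, 5, 2 and 2 in DIO-HFD against CON-LFD, DIO-VSG against DIO-HFD, DIO-LFD against DIO-HFD and DIO-VSG against DIO-LFD. With array weights they numbered 1, 8, 1 and 5. In fits of only the 2 groups compared they numbered 8, 1 and 1 in the last 3 comparisons, and with the stromal progenitor score as a covariate 3 in DIO-VSG and 1 in DIO-LFD against DIO-HFD. Adding the B cell score to the model left 1 in DIO-LFD against DIO-HFD, and without the libraries low in B cell markers 0 in DIO-HFD against CON-LFD, 1 in DIO-LFD against DIO-HFD and 3 in DIO-VSG against DIO-LFD. Leaving out each library in turn gave 0 to 4, 3 to 7, 0 to 2 and 1 to 3 members. In DIO-HFD against CON-LFD the count was 0 without DIO-HFD replicate 2 and 1 without CON-LFD replicate 1. In DIO-VSG against DIO-HFD it was 3 without replicate 3 of either group. In DIO-LFD against DIO-HFD it was 0 without DIO-HFD replicate 3 or DIO-LFD replicate 4, and 1 without CON-LFD replicate 1, DIO-HFD replicates 1 or 2, DIO-LFD replicates 1 or 2, or DIO-VSG replicates 3 or 4. In DIO-VSG against DIO-LFD it was 1 without DIO-LFD replicate 3 or DIO-VSG replicates 2 or 3. Members without overlap numbered 0, 3, 0 and 1, and 0 to 2, 3 to 7, 0 to 1 and 1 to 2 when each library was left out. By library totals they numbered 2 (Thbs2 and Eln) and 5 in the first 2 comparisons, and after quantile normalization 1 (Thbs2) and 5. Library totals moved the median gene of a library by -0.142 to 0.187 and quantile normalization by -0.054 to 0.124 (log2).

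With array weights, which down-weight libraries far from their group, DIO-VSG against DIO-HFD had adjusted P values of 0.00776 for Thbs2, 0.0252 for Thbs3, 0.0388 for Tnc, 0.0217 for Fn1 and 0.00803 for Eln, and 3739 of all genes passed against 0 without weights. The counts of all genes with weights were 4196, 1811 and 184 in the other 3 comparisons, against 8, 0 and 0. Eln in DIO-VSG against DIO-LFD had adjusted P values of 0.0336 with weights and 0.0316 in the fit of those 2 groups, where 1533 genes passed. The 8 genes that passed in DIO-HFD against CON-LFD became 0 in the fit of those 2 groups and 1 with the replicate block. With weights, Thbs1 stood at log2 0.43 in DIO-HFD against CON-LFD, -1.11 in DIO-VSG and 0.26 in DIO-LFD against DIO-HFD. The cause was not tested.

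After the group means were subtracted, 9 of 24 same-numbered pairs of libraries correlated above 0.1 (r from -0.609 to 0.534). Of 16 libraries, 7 were closest to a library of their own number. Whether the replicate numbers pair the libraries was not tested. With a replicate block, 1, 6, 0 and 2 members were below an unadjusted 0.05. Depth limits no member here, and the number of mice limits the precision.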

Other observations

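In DIO-LFD, the summed level of 12 macrophage markers was 52650, 29735, 56892 and 39232 normalized counts in replicates 1 to 4, so that replicates 1 and 3 were the higher pair, as they were for Thbs1, Thbs2 and Eln. DIO-LFD replicate 1 also had the highest endothelial sum of all libraries, at 119364. These values were noticed after the data were seen, and the match within DIO-LFD alone was not tested. Over all 16 libraries, relative to the group means, the macrophage score correlated with Thbs1 at r = 0.26 (rho 0.43, permutation P = 0.179 and 0.0916, adjusted 0.342 and 0.298 over 65 relations) and with Eln at 0.42 (rho 0.55, permutation P = 0.0727 and 0.0388, adjusted 0.228 and 0.21). Without the 2 farthest libraries r was 0.53 and 0.39. Neither passed the adjusted threshold, and Thbs2 passed it for rho alone.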
